A study of Saccharomyces cerevisiae with 2 samples.

Results

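Yeast mates through a pheromone system that was measured here in cells of a single mating type, alpha. The genes described are 4 alpha-specific genes (MF(ALPHA)1, MF(ALPHA)2, STE3 and SAG1), 5 haploid-specific genes of the pheromone pathway (GPA1, STE4, STE18, FUS3 and FAR1) and the kinase gene PRR2. They are the probe sets whose platform annotation carries one of these 10 symbols, 1 probe set for each gene, out of 5449 genes with a named probe set. They were selected on their signals on these same arrays and on their known roles, so the values that follow are descriptions and no test was run on them.

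An alpha cell secretes alpha-factor and carries the receptor for a-factor, the pheromone of the opposite type. Binding of pheromone releases the Ste4-Ste18 dimer of a G protein from its alpha subunit Gpa1, and the dimer starts a kinase cascade that ends in the MAP kinase Fus3, the cell cycle inhibitor Far1 and the transcription factor Ste12. Alpha-specific genes are switched on by the mating type protein alpha1 together with Mcm1. Haploid-specific genes are active in both mating types and are shut off in diploids by the a1-alpha2 repressor.

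The strain was BY4742, a haploid of genotype Mat alpha that also carries his3Delta1, leu2Delta0, lys2Delta0 and ura3Delta0. These alleles were shared by both conditions. One culture was grown with 0.5% glucose (dietary restriction, DR) and the other with 2.0% glucose (ad libitum, AL), each in 1% yeast extract with peptone at 30°C for 12 hours, from a density (OD) of 0.01 to a final density between 0.85 and 0.99. Each condition is represented by 1 array, so the precision is limited by the number of arrays and no difference has a replicate check. No pheromone treatment is named in the labels.

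The conditions follow the deposited labels. The direction obtained with these labels, given as the DR array over the AL array, opposes the direction of the ratios in the study's own tables. For example, the study lists GTR1 as more than 2-fold up under DR, whereas here it had 632.4 on DR and 1747.9 on AL. With the labels exchanged, each log2 ratio would keep its size and have the other sign. Which source carries the right labels was not tested. Below, higher on DR or on AL thus names an array by its label and not an effect of glucose. In RNA from whole cultures, fewer cells of a kind and less RNA per cell cannot be told apart.

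Signals were checked against genes that this strain lacks or does not use. The deleted genes LEU2, LYS2 and URA3 had signals of 1.20 to 24.6 on DR and 8.30 to 17.0 on AL. The 6 a-specific genes, markers of the opposite mating type, lay between 17.4 and 129.4 on DR and between 8.30 and 281.6 on AL. The top of these 9 genes, STE6, was used as the background level (129.4 and 281.6), so the a-specific genes are under it by construction. The fourth allele, his3Delta1, is a partial deletion, and HIS3 (1636 on DR and 458.5 on AL) was left out of this check. HMRA1, which encodes the a1 part of the diploid repressor, had 4.40 and 0.90 (named after its value was seen). All 4 alpha-specific genes stood above the background level on DR, and 3 of them did so on AL.

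All 4 alpha-specific genes had a higher signal on the DR array, by 5.16- to 23.2-fold. Past 2-fold higher on DR were 20.5% of all genes, and since these genes were chosen for their values nothing is read from 4 of 4. MF(ALPHA)1 (YPL187W), which encodes the main precursor of the alpha-factor pheromone, had a signal of 6158 on DR and 1040 on AL, a 5.92-fold difference (log2 ratio 2.57). MF(ALPHA)2 (YGL089C), the second alpha-factor gene, had 5174 and 222.6, or 23.2-fold (4.54). The AL signal of MF(ALPHA)2 lay under the background level, and with that signal raised to the level the difference was 18.4-fold.

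The other alpha-specific pair acts at the cell surface. STE3 (YKL178C), the a-factor receptor, had a signal of 5295 on DR and 637.2 on AL, 8.31-fold apart with a log2 ratio of 3.05. SAG1 (YJR004C), the alpha-agglutinin that binds the partner's cell wall, had 6278 and 1217, 5.16-fold apart with a log2 ratio of 2.37. Both genes were above background on both arrays. The pheromone genes, the receptor and the adhesion protein thus lay on the same side, within 2.17 log2 units of each other. Of all genes, 4.07% had a higher ratio than MF(ALPHA)1, 2.40% than STE3 and 5.12% than SAG1.

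**Figure D1:**
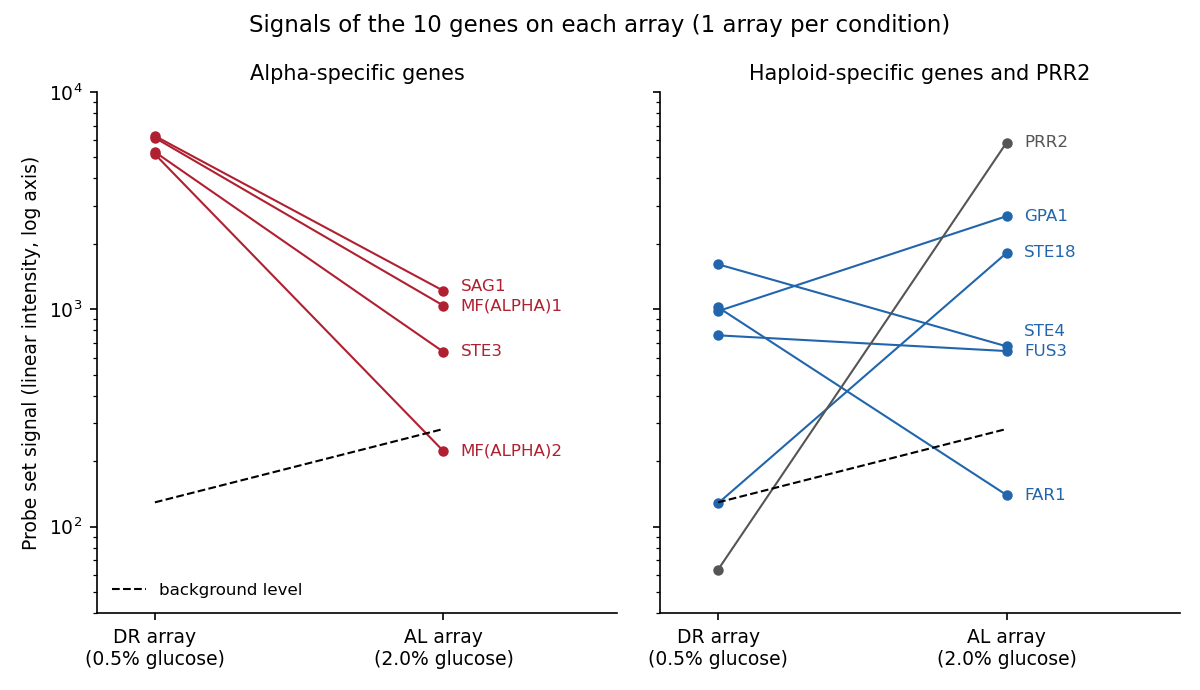
Probe set signal (linear intensity on a log axis) of each of the 10 genes on the DR and the AL array, 1 point per array, with lines joining the points of a gene; alpha-specific genes are red, haploid-specific genes blue and PRR2 grey, and the dashed line joins the background levels (129.4 and 281.6). All 4 red lines descend from DR to AL, whereas the blue lines run in both directions.

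The 3 subunits of the pheromone G protein did not share a direction. GPA1 (YHR005C), the alpha subunit that holds the dimer inactive, had 981.2 on DR and 2684 on AL, 2.74-fold higher on AL (log2 ratio −1.45). STE4 (YOR212W), the beta subunit, had 1612 and 675.7, 2.39-fold higher on DR (1.25). STE18 (YJR086W), the gamma subunit that anchors the dimer in the membrane, had 128.2 and 1818, 14.2-fold higher on AL (−3.83). Ste4 and Ste18 act as a dimer, and their log2 ratios lay on opposite sides of 0. The DR signal of STE18 was just under the background level of 129.4, and raising it to that level left 14.1-fold.

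The last haploid-specific genes act at the end of the cascade. FUS3 (YBL016W), the MAP kinase of mating, had a signal of 759.3 on DR and 642.7 on AL, which is 1.18-fold apart and the sole difference within 2-fold among the 10 genes. FAR1 (YJL157C), which stops the cell cycle in G1 and guides polarity towards a partner, had 1022 and 139.8, or 7.31-fold (log2 ratio 2.87). Its AL signal was under background, and the difference with that signal raised to the level was 3.63-fold. On the log2 scale that is 1.86, below the ratio of each alpha-specific gene, so where FAR1 stands beside them depends on its low AL signal.

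PRR2 (YDL214C) encodes a protein kinase that dampens pheromone signalling downstream of the MAP kinase. Its signal was 63.4 on DR and 5854 on AL, a 92.3-fold difference (log2 ratio −6.53). The DR signal lay under the background level, and the difference with that signal raised to the level was 45.2-fold. PRR2 stood opposite to the alpha-specific genes, and it was kept out of both classes because the sources used here do not place it among the haploid-specific genes.

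For the comparison of the classes, the median log2 ratio was 2.81 over the 4 alpha-specific genes and 0.24 over the 5 haploid-specific genes, a difference of 2.57. The median of all genes was −0.12. The alpha-specific genes ran from 2.37 to 4.54, and the haploid-specific genes from −3.83 to 2.87, a span of 6.70. The ranges overlapped only through FAR1, and not with its AL signal raised to background (1.86). Of the haploid-specific genes, 2 were past 2-fold higher on DR and 2 on AL, where 20.5% and 24.4% of all genes were. The other, FUS3, lay within 2-fold. Over all 10 genes, 6 were past 2-fold higher on DR and 3 on AL, against the same shares of all genes (44.9% in either direction). With PRR2 counted among the haploid-specific genes their median was −0.61, and the mean without PRR2 was −0.18, so the sign of that class's centre was not settled. At 1.5-fold the counts were 6 of the 10 higher on DR and 3 on AL, where 29.3% and 35.7% of all genes were past it, and at 3-fold they were 5 and 2, where 11.5% and 12.7% were.

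**Figure D2:**
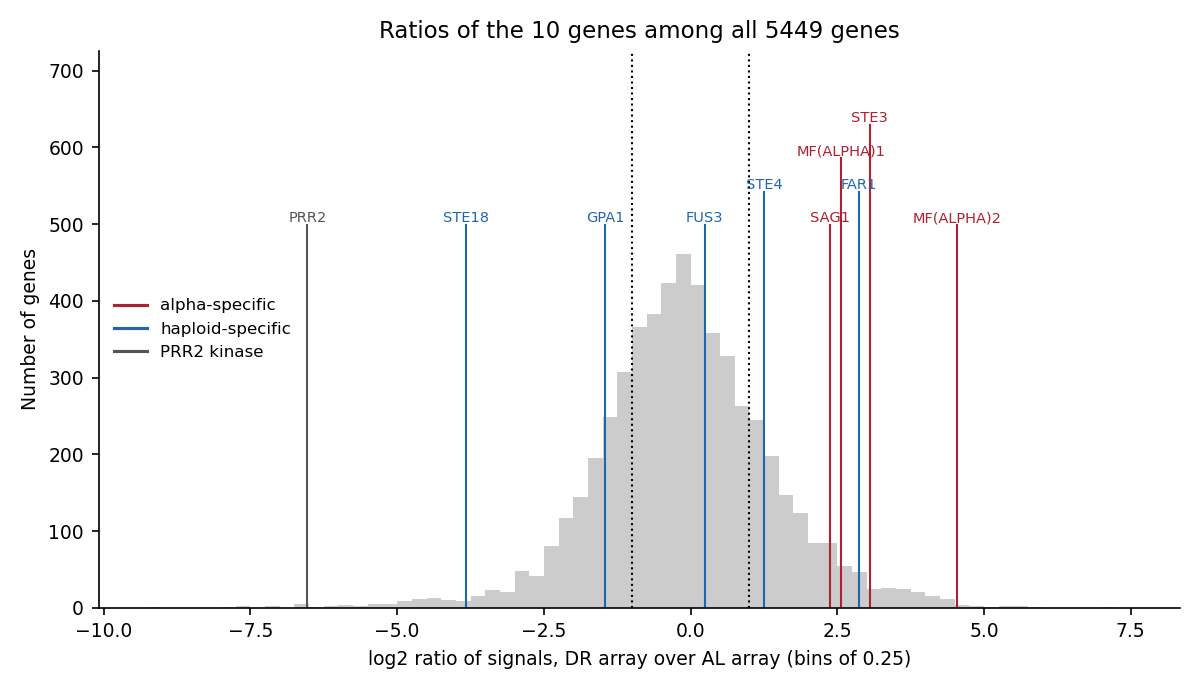
Histogram of the log2 ratio of signals (DR array over AL array, bins of 0.25) for 5449 genes, with the ratio of each of the 10 genes as a vertical line (red alpha-specific, blue haploid-specific, grey PRR2) and 2-fold as dotted lines. The alpha-specific lines stand between 2.37 and 4.54, the haploid-specific lines between −3.83 and 2.87, and PRR2 at −6.53.

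The regulators of these classes were looked at next, from lists by role. The lists were written from textbook knowledge, with earlier results of these arrays known. The transcript of alpha1, the activator of the alpha-specific genes, was read by the HMLALPHA1 probe set, which cannot separate the identical gene copies at MAT and HML. It had 818.3 on DR and 738.3 on AL, 1.11-fold apart. MCM1, the partner of alpha1, had 1867 and 2013, 1.08-fold apart. Neither differed by as much as 2-fold. The 4 alpha-specific genes, selected on these signals, differed by 5.16-fold or more. Whether the alpha1 and MCM1 signals relate to those differences was not tested. The HMRA2 probe set, whose gene repeats the end of the alpha2 gene, had 1522 and 4964, 3.26-fold higher on AL, and the copies cannot be told apart there (named after its value was seen). No probe set was named for MATALPHA1, MATALPHA2 or HMLALPHA2.

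AFB1, an alpha-specific gene for a secreted protein that binds a-factor, was not among the 10 and had 3039 on DR and 1205 on AL, 2.52-fold higher on DR. It had the direction of the other alpha-specific genes and a smaller ratio (1.34 on the log2 scale). Of 6 further genes under the a1-alpha2 repressor, 2 were past 2-fold higher on DR and 1 on AL, where 20.5% and 24.4% of all genes were. The other 3 lay within it, and the median log2 ratio of the 6 was 0.29. With low signals raised to background the counts were 1 and 1, where 15.8% of genes above background on an array were past 2-fold higher on DR and 24.2% on AL. HO, the mating type switching endonuclease, had 410.4 and 50.4, the latter under background (1.46-fold when raised to it), and SST2, which turns the G protein off, had 756.8 and 315.4. STE5, the scaffold of the cascade, stood the other way with 457.0 and 1056. RME1, a repressor of meiosis (−0.71), AXL1, an a-factor protease (0.23), and NEJ1, a DNA end-joining factor (0.34), were within 2-fold on the log2 scale.

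Between the receptor and transcription, 8 relay genes had a median log2 ratio of −0.26. Of the 8, 1 was past 2-fold higher on DR and 2 on AL, where 20.5% and 24.4% of all genes were. STE7, the MAP kinase kinase, had 231.4 on DR and 1154 on AL, 4.99-fold higher on AL. STE50, an adaptor of the kinase Ste11, had 333.2 and 831.8, 2.50-fold higher on AL. KSS1, the MAP kinase that overlaps Fus3 in function, had 265.2 and 131.7, with the AL signal under background, and raising that signal gave a log2 ratio of −0.09 and left 0 of the 8 past 2-fold higher on DR. STE20, the first kinase of the cascade, had 937.4 and 762.6. The relay thus showed no shared direction, with STE7 farthest from 0.

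STE12, the transcription factor of the response, was 2.07-fold higher on DR, with signals of 1620 and 783.2. KAR4, a factor for the later genes of mating, had 306.1 and 88.8, the latter under background, and 1.09-fold remained with that signal raised to it. The Ste12 partner TEC1 (0.20) and the Ste12 repressors DIG1 (−0.43) and DIG2 (−0.92) were within 2-fold by log2 ratio. Among 4 other genes that limit the response, AFR1, which acts on adaptation and cell shape, was 4.50-fold higher on AL (485.0 and 2182) and MSG5, a phosphatase of Fus3, 2.67-fold higher on AL (337.1 and 899.8). AKR1 and PRR1 lay within 2-fold (log2 ratios 0.23 and 0.10). Of the 4, 2 were thus past 2-fold higher on AL and 0 on DR, where 24.4% and 20.5% of all genes were.

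The genes that pheromone induces were split. Of 19 such genes, 5 were past 2-fold higher on DR and 5 on AL, where 20.5% and 24.4% of all genes were. The other 9 lay within it, and the median log2 ratio of the 19 was −0.07. Under background on both arrays were 7 of the 19, among them the called genes PRM6, PRM7 and FUS2. With low signals raised to background, 2 of the 12 other genes were past 2-fold higher on DR and 4 on AL, against 15.8% and 24.2% of all genes above background on an array. GIC2, a Cdc42 effector of polarity, had 1501 on DR and 91.7 on AL, the latter under background, and AGA1, the anchor subunit of the a-agglutinin, had 1118 and 363.9. PRM10 (104.3, under background, and 1301) and PRM8 (759.9 and 3556), both named for their regulation by pheromone, stood the other way. With the signals under background raised to it, the log2 ratios of GIC2 and PRM10 were 2.41 and −3.33.

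Enzymes that mature the pheromones were mostly within 2-fold, as were 3003 of all 5449 genes. KEX2, the protease that first cuts the alpha-factor precursor, had 865.6 on DR and 380.8 on AL, 2.27-fold higher on DR. Past 2-fold in that direction were 20.5% of all genes. KEX1 (log2 ratio 0.20) and STE13 (−0.21), which trim the peptide ends, lay within 2-fold. Of the 5 genes for the lipid-modified end of a-factor, a kind of modification that Ste18 also carries, 4 lay within 2-fold, namely RAM1 (−0.08), RAM2 (−0.70), STE14 (0.12) and STE24 (0.77). The fifth was RCE1, with 416.9 on DR and 191.3 on AL, the latter under background (1.48-fold when raised to it). The log2 ratio of STE18 was −3.83, and 98.5% of all genes had a higher ratio. Since STE18 was selected on these signals, nothing is read from its place below these 5 genes.

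FAR1 was selected on these signals, and 97.1% of all genes had a lower ratio. Nothing is thus read from its distance to the genes that share its name. The 6 genes of the FAR3 complex, which keeps cells in pheromone arrest, had a median log2 ratio of −0.80. None was past 2-fold higher on DR, where 20.5% of all genes were. FAR7 was past 2-fold higher on AL (256.5 and 799.8), where 24.4% of all genes were. FAR3 (−0.90), VPS64 (−0.82), FAR11 (−0.78), FAR8 (−0.38) and FAR10 (0.00) lay within 2-fold. In the G protein pathway that senses glucose, the receptor gene GPR1 (−0.61), the alpha subunit gene GPA2 (−0.50) and RGS2, which turns Gpa2 off (−0.85, under background on both arrays), were within 2-fold. ASC1, a ribosomal protein that also acts as a beta subunit for Gpa2, had 7817 on DR and 2335 on AL, 3.35-fold higher on DR. In both pathways the alpha and beta subunit genes lay on opposite sides of a ratio of 1. GPA2 was only 1.41-fold higher on AL, so no likeness of the pathways is read from this.

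**Figure D3:**
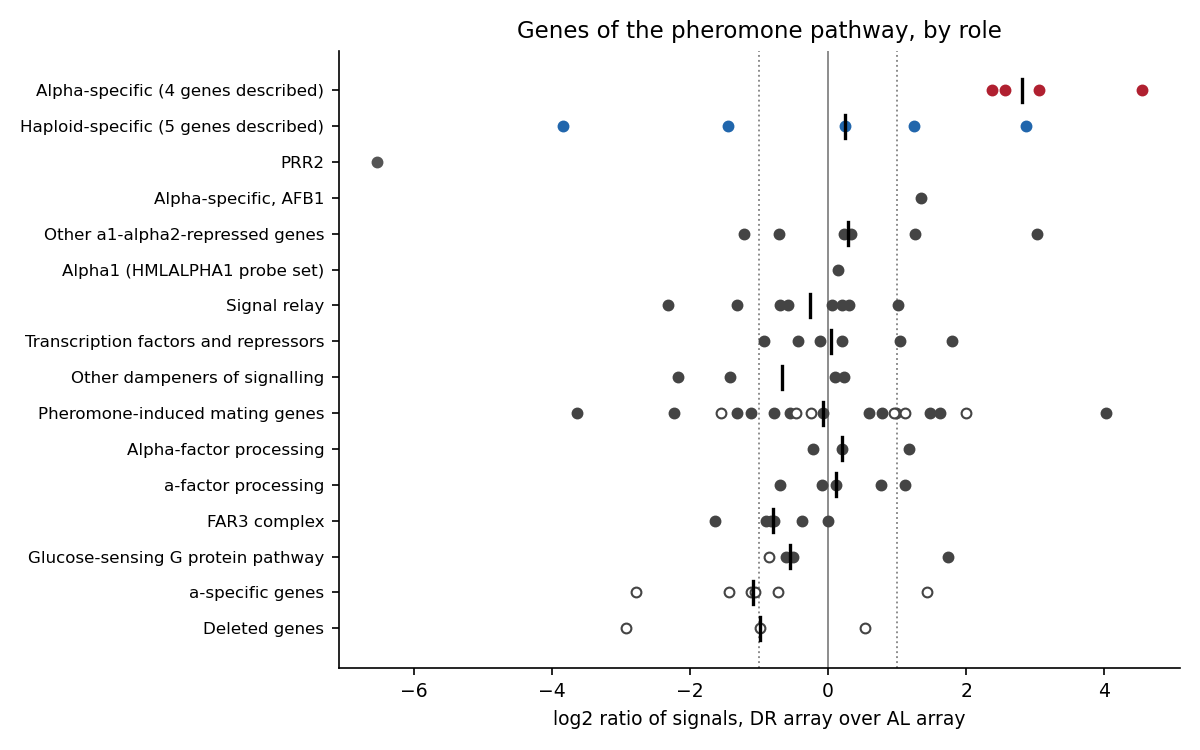
Log2 ratio of signals (DR array over AL array) of each gene in the lists by role, 1 point per gene, with open circles for genes under background on both arrays, a black bar at the median of a list and dotted lines at 2-fold. The 4 alpha-specific genes, selected on these signals, lie between 2.37 and 4.54, and the 19 pheromone-induced genes run from −3.64 to 4.03 around a median of −0.07.

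Position on the chromosome was compared as well, a look added after the signals were seen. Of the 20 protein-coding genes next to the 10 genes, 18 had a named probe set, and none of the 20 overlapped its neighbour among the 10. Of the 18, 8 had the direction of the gene they lay next to. Of all 5449 genes, 2487 were higher on DR and 2959 on AL, so nothing is read from this count. Among the 18, 1 was past 2-fold higher on DR and 5 on AL, where 20.5% and 24.4% of all genes were. Around the alpha-specific genes, 7 neighbours ran from −1.47 to 0.04 on the log2 scale and 0 of 7 were past 2-fold higher on DR, where 20.5% of all genes were. GPA1 lay between NEM1 and TIM10 on the same strand, and their log2 ratios were −1.47 and −1.41 against −1.45 for GPA1. FAR1 lay next to CIS3, a cell wall protein gene on the same strand, which had 6259 on DR and 769.7 on AL (3.02, against 2.87 for FAR1). SSY5, on the other flank and the same strand, had 361.5 and 305.4 (0.24). Next to PRR2, GDH2, the NAD-dependent glutamate dehydrogenase, had 1395 and 3263 (−1.23), and NOP6 on the other flank had −0.47. EMC2, the measured neighbour of STE18, had 0.25.

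**Figure D4:**
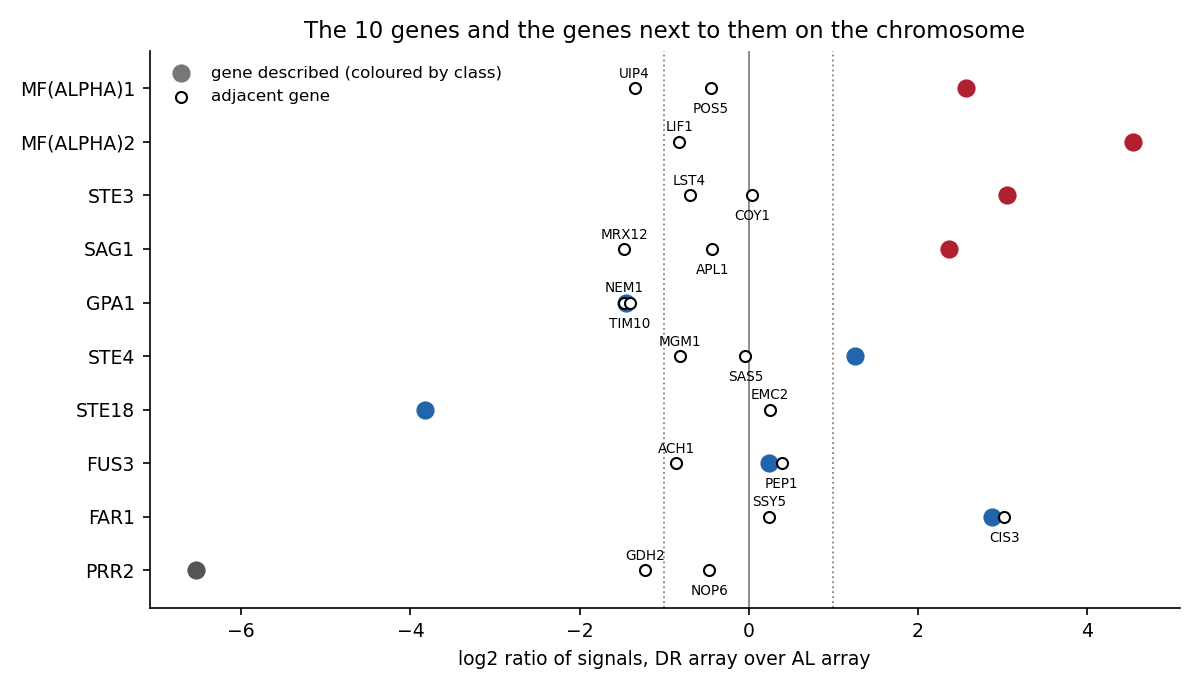
Log2 ratio of signals (DR array over AL array) of each of the 10 genes (filled, red alpha-specific, blue haploid-specific, grey PRR2) and of the protein-coding genes next to it (open), with dotted lines at 2-fold. The 7 measured neighbours of the alpha-specific genes lie between −1.47 and 0.04. GPA1, FUS3 and FAR1 each lie close to at least 1 neighbour, though SSY5 next to FAR1 (0.24) and ACH1 next to FUS3 (−0.86) lie farther off. Of the 18 measured neighbours, 8 have the direction of the gene they lie next to, a count from which nothing is read.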

How the data were processed

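RNA of 2 cultures was hybridized by the authors' service laboratory to GeneChip Yeast Genome 2.0 arrays, 1 per condition. For each of 10928 probe sets, the deposited value is a linear intensity, normalized for the authors with the Affymetrix statistical algorithms. The methods and labels state neither a version nor the target level or between-array scaling. Probe sets annotated to 1 gene were matched by gene number to the RefSeq R64 table (5498 matched), which gave 5449 genes after log2 signals were averaged within a gene. The arrays' files name no genome build, so the table served only for names and for which genes are neighbours. Log2 ratios (DR over AL) were computed and counted past 2-fold, the methods' threshold. No test was run with 1 array per condition. The ratio and count steps were tested on simulated data.

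The genes described and the lists by role were chosen with earlier results of these arrays known. Named are the 10 genes, every gene of lists with 6 or fewer genes, and in longer lists the 2 highest and 2 lowest ratios among genes above background on at least 1 array. Adjacent genes, HMRA1, HMRA2, HIS3, PRM6, PRM7, PRM9 and FUS2 were added after the signals were seen. Alternatives covered scaling, low signals, probe sets of a gene, fold thresholds and class summaries. Planned searches for promoter motifs and protein features were not run, since no sequence was used here. Python 3.11.15, numpy 2.4.6, pandas 2.3.3, statsmodels 0.14.6 (lowess, span 0.3) and matplotlib 3.10.9 were used.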

Additional observations from a re-analysis of the deposited data

How the results depend on the processing

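Under median centring, quantile normalization, removal of the trend on signal, raising of low signals to background, to the highest deleted gene or (added after seeing the data) to the 95th percentile of sets annotated to genes outside the RefSeq table, addition of the median background signal, and use of the brightest probe set, each of the 10 log2 ratios kept its direction and its side of 2-fold. MF(ALPHA)2 ranged from 4.20 to 4.82, FAR1 from 1.86 to 2.99, STE18 from −3.83 to −3.56 and PRR2 from −6.59 to −5.50. The difference of the class medians ranged from 2.18 to 3.42. The median log2 ratio of all genes, −0.12 as deposited, was −0.39 with low signals raised to background and −0.27 with background added, the background level itself being higher on AL. Among genes of the other lists above background on an array, raising low signals to background ended the calls of KSS1, HO, KAR4, RCE1 and PRM9. Called genes under background on both arrays, such as PRM6, PRM7 and FUS2, were left out of the raised counts. Signals under background limit the sizes given for MF(ALPHA)2, FAR1, STE18 and PRR2. No paired analysis was possible because each condition has 1 array.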
